A study of Mus musculus with 4 samples.

Results

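The heat shock chaperones of the mouse blastocyst examined here are 10 genes, chosen by symbol: Hspa8, Hspa1a and Hspa1b of the cytosolic HSP70 family, Hspa5 and Hsp90b1 of the endoplasmic reticulum, Hspa9, Hspd1 and Hspe1 of mitochondria, and Hsp90aa1 and Hsp90ab1 of the cytosolic HSP90 family. All 10 were listed once per library, among 20714 gene symbols in both assays. Blastocysts were analysed by RNA-seq of polyA RNA (mRNA, 2 replicate libraries) and by Ribo-seq, which measures ribosome-protected fragments (RPF, 2 replicate libraries). All 4 libraries came from wild-type, untreated hybrid embryos with C57BL/6J mothers, 4 weeks old, and PWK/PhJ fathers (the strain label reads C57BL/6N x PWK). The mothers had received the hormones PMSG and hCG to induce ovulation, which every group shared. The embryos were taken at the 8-cell stage and grown to blastocysts in KSOM medium, so every group shared in vitro culture, and the zona pellucida was removed with acidic Tyrode's solution. Levels are FPKM (fragments per kilobase, scaled to library size) as deposited, over transcripts for mRNA and over coding sequences for RPF. No second condition was analysed, so the comparison is between assays, and it asks how the ribosome occupancy of these genes related to their mRNA level.

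The steps of low FPKM values implied 5459269 and 5173839 fragments in the mRNA libraries and 535216 and 485641 footprints in the RPF libraries. Of the values used, 65.0% to 66.7% (mRNA) and 85.8% to 86.6% (RPF) lay within 0.1 of a whole fragment, where 20% would by chance. Over genes with a mean of at least 1 FPKM, the median difference between replicates was 0.287 (log2) for mRNA and 0.553 for RPF. All 6 trophectoderm markers (among them Cdx2 and Krt8) were at 1 FPKM or more in every library. The oocyte, cumulus and blood lists summed to at most 1.92 FPKM in any library. Markers of the inner cell mass moved with the assay, since 5 of 5 were at 1 FPKM or more in both RPF libraries and 3 and 2 of 5 in the mRNA libraries, and their sums were 693 and 844 FPKM in RPF against 143 and 58.1 FPKM in mRNA. The 5 primitive endoderm markers summed to 156 and 143 FPKM in RPF and 12.7 and 9.40 FPKM in mRNA. The trophectoderm sums were 5812 and 5369 FPKM in RPF and 3021 and 2803 FPKM in mRNA. Over all genes, the RPF libraries also had larger sums, 1905150 and 1960410 FPKM against 519763 and 532159 FPKM in mRNA. In such bulk samples, fewer cells of a type, less RNA per cell and more ribosomes per mRNA cannot be told apart.

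Chaperones bind unfolded or partly folded proteins and keep them from aggregating. HSP70 proteins bind and release short hydrophobic stretches in cycles of ATP hydrolysis, helped by J-domain proteins and nucleotide exchange factors, whereas HSP90 proteins act later on clients such as kinases and steroid receptors, with their own co-chaperones. Each compartment has its own set, and some cytosolic members (Hspa1a, Hspa1b) are classic targets of the heat shock factor HSF1, while Hspa5 and Hsp90b1 are classic targets of the unfolded protein response. Hspa1a and Hspa1b are also known as early genes of the mouse zygotic genome.

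The coding sequences of Hspa1a and Hspa1b are shown where they differ, because footprints of this pair can be told apart only there. On the NCBIM37 assembly (mm9) both genes lie on the minus strand of chromosome 17, Hspa1a at chr17:35106144-35109069 and Hspa1b at chr17:35093381-35096183. Their coding sequences have 1926 and 1929 bases and an identity of 99.58% over aligned bases. They differ by 3 gap bases and by 8 substitutions, A156G, T795G, A921G, A1380G, A1416G, A1629G, C1881G and G1884A. Each substitution gives the Hspa1a base, the position counted from 1 at the first base of the Hspa1a start codon, and the Hspa1b base. The first of them falls in these 28-base exonic windows, the length of a footprint, at coding positions 143 to 170, with the base that differs in capitals (chr17:35108701-35108728 and chr17:35095783-35095810, NCBIM37, minus strand).
Hspa1a: agcgcctcatcggAgacgccgccaagaa
Hspa1b: agcgcctcatcggGgacgccgccaagaa
Of the 28-base windows of Hspa1a, 89.5% also occurred in the Hspa1b coding sequence, and 199 windows of Hspa1a and 202 of Hspa1b occurred in 1 of the pair only.

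Sequence before the start site was taken from the RefSeq promoter table on GRCm38.p6, which held 6 of the 10 genes. Hspa8, Hspa9, Hsp90aa1 and Hsp90ab1 were not matched there. The stretches below are shown because Hspa1a and Hspa1b were both listed at 0 in mRNA while Hspa5 and Hsp90b1 lay close to each other in both assays. Capitals mark the heat shock element pairs GAANNTTC or TTCNNGAA, each its own reverse complement, or the endoplasmic reticulum stress element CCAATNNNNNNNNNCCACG, searched on both strands. The stretches are the 250 bases before the start site, or 30 bases for Hspe1 (Hspa1a chr17:34972157-34972406, minus strand; Hspa5 chr2:34771840-34772089, plus strand; Hsp90b1 chr10:86705445-86705694, minus strand; Hspe1 chr1:55088055-55088084, plus strand).
Hspa1a: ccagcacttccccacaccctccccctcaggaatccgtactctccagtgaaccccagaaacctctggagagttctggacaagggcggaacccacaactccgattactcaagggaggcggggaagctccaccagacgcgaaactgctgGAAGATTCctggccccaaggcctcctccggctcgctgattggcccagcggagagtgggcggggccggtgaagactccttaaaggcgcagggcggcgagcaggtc
Hspa5: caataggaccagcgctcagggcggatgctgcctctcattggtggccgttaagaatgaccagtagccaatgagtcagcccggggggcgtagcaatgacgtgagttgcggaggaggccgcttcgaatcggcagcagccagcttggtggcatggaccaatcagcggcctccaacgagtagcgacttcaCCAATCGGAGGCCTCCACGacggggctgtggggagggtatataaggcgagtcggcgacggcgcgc
Hsp90b1: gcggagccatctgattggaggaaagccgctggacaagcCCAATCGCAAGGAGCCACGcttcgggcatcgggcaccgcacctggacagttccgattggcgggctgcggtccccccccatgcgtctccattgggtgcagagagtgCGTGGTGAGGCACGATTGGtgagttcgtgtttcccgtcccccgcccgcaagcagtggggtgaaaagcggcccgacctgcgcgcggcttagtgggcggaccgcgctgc
Hspe1: tccgTTCTAGAACCTTCCGGAAggccccgc
The stress element was present in 39 of 32851 windows of 300 bases in the table (0.119%). Hspa5 held it once, 65 bases before the start site. Hsp90b1 held it once on each strand, 212 and 107 bases before the start site. The head-to-head pair GAANNTTC was in 7.86% of all windows and TTCNNGAA in 8.52%, and either of them in 15.1%. Hspa1a and Hspa1b each held 1 match of GAANNTTC, 104 bases before the start site, and the 250 bases of the pair differed at 3 positions. Hspe1 held 3 overlapping matches, which 84 windows (0.256%) equalled or exceeded, and the same stretch lay in 1 of the Hspd1 windows, since the start sites of Hspe1 and Hspd1 lie head to head. A match is a run of letters in the sequence and no measurement of binding.

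The cytosolic HSP70 genes were split between very high and near-absent levels. Hspa8 encodes HSC70, the constitutive HSP70 of the cytosol, and lies at chr9:40609067-40613283 (NCBIM37). Its mRNA level was 1717 and 2019 FPKM in replicates 1 and 2. Its RPF level was 4551 and 4197 FPKM, equivalent to 4233 and 3542 footprints. These values put Hspa8 above at least 99.69% of the gene symbols in each library. Hspa1a and Hspa1b, which encode the stress-inducible HSP70, were listed at 0 in both mRNA libraries. A floor of 3 fragments would be 0.202 and 0.213 FPKM for Hspa1a and 0.211 and 0.223 FPKM for Hspa1b, and such floors cover counting error only. The RPF level of Hspa1a was 1.08 and 1.20 FPKM, equal to 1.0 footprint in each library and under the floor of 3 footprints (3.25 and 3.59 FPKM). The RPF level of Hspa1b was 4.33 and 2.39 FPKM, equal to 4.0 and 2.0 footprints, above the floor in replicate 1 only. Both inducible genes were thus near the limit of detection in Ribo-seq, and at this depth their RPF levels were not distinguishable from each other.

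The endoplasmic reticulum pair lay above 94.07% to 96.01% of gene symbols in the mRNA libraries and above 96.37% to 96.95% in the RPF libraries. Hspa5 encodes BiP, the HSP70 of that compartment, at chr2:34627490-34632051. Its mRNA level was 42.0 and 62.9 FPKM, and its RPF level was 406.5 and 426 FPKM (384 and 365 footprints). Hsp90b1 encodes GRP94, the HSP90 of the same compartment, at chr10:86152954-86168254. Its mRNA level was 45.6 and 72.5 FPKM, and its RPF level was 381 and 335 FPKM (449.5 and 359 footprints). For both genes the 2 RPF values lay above the 2 mRNA values, as they did for all 10 chaperone genes. In both, mRNA replicate 2 was the higher one, with a log2 difference of replicate 1 minus replicate 2 of -0.57 for Hspa5 and -0.66 for Hsp90b1. These were the largest differences between mRNA replicates among the 8 chaperone genes with mRNA signal.

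The mitochondrial genes differed among themselves. Hspa9 encodes mortalin, the HSP70 of the matrix, which also drives protein import, at chr18:35097068-35114011. It was at 125 and 121 FPKM in mRNA and at 524 and 463 FPKM in RPF (515 and 413 footprints). Hspd1 encodes HSP60, the barrel-shaped chaperonin of the matrix, at chr1:55134679-55145087, with an mRNA level of 136 and 149 FPKM. Its RPF level was 516 and 548 FPKM (419 and 404 footprints), which overlapped the range of Hspa9. Hspe1 encodes HSP10, the lid of that chaperonin, at chr1:55144976-55148151, where the annotation overlaps Hspd1 on the other strand. Its mRNA level was 669 and 775 FPKM, and its RPF level was 4169.8 and 5816 FPKM. The Hspe1 RPF values rested on 243 and 308 footprints, fewer than those of Hspd1.

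The cytosolic HSP90 genes were abundant in both assays, with a different balance. Hsp90aa1 encodes the stress-responsive HSP90 alpha, at chr12:111928815-111940938. It had the highest mRNA level of the 10 genes, 2560.4 and 2278 FPKM, and its RPF level was nearly the same figure, 2689 and 2575 FPKM (2876 and 2499 footprints). Hsp90ab1 encodes the more constitutive HSP90 beta, at chr17:45704724-45710220. Its mRNA level was 1022 and 908 FPKM, below both Hsp90aa1 values. Its RPF level was 2999 and 2563 FPKM (3165 and 2454 footprints), which overlapped that of Hsp90aa1.

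In mRNA the order of levels was Hsp90aa1, Hspa8, Hsp90ab1, Hspe1, Hspd1, Hspa9, then Hsp90b1 and Hspa5, then Hspa1a and Hspa1b at 0. The replicate values of neighbours in that order did not overlap, except those of Hsp90b1 and Hspa5. In RPF the order of means was Hspe1, Hspa8, Hsp90ab1, Hsp90aa1, Hspd1, Hspa9, Hspa5, Hsp90b1, Hspa1b and Hspa1a. There Hspe1 overlapped Hspa8, Hsp90ab1 overlapped Hsp90aa1, and Hspd1 overlapped Hspa9. Hspa8, Hspe1, Hsp90aa1 and Hsp90ab1 were above at least 99.37% of gene symbols in all 4 libraries. With 2 libraries per assay, an order without overlap is a description of these libraries. The labels give replicate numbers without naming separate pools of embryos, so any p-value here measures only the spread between these libraries, which may be technical.

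**Figure D1:**
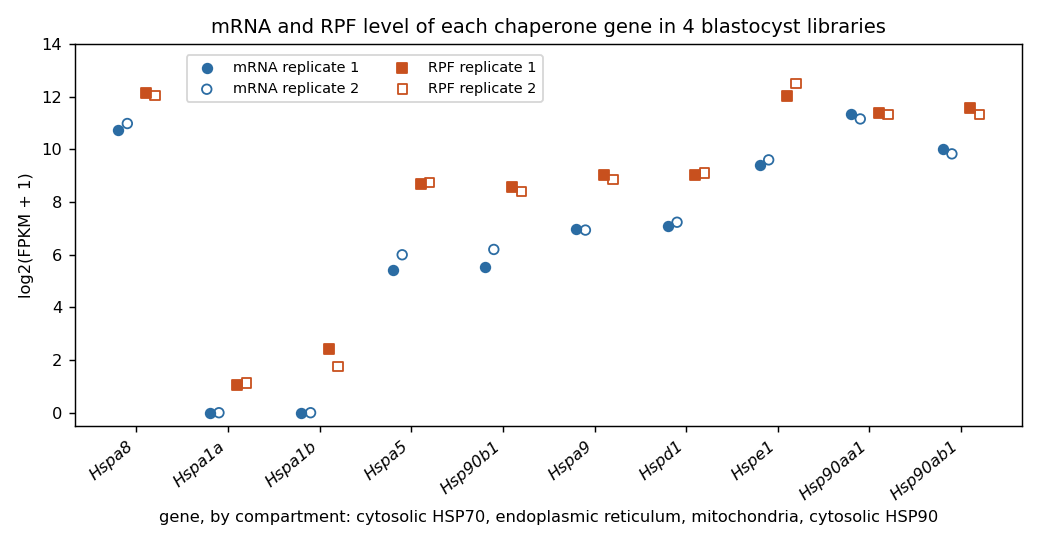
Level of the 10 chaperone genes as log2(FPKM + 1) on the vertical axis, with mRNA as circles and RPF as squares, replicate 1 filled and replicate 2 open. Hspa1a and Hspa1b lie at 0 in mRNA. Hspa5, Hspe1 and Hsp90b1 show the widest gaps between assays, and Hsp90aa1 shows nearly none. These gaps are not centred on the median gene.

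The RPF order depended on the length used. The deposited RPF values matched an effective length, the coding length less the room a fragment of 200 ± 80 bases takes up, so short coding sequences have large FPKM per footprint. Hspe1 has 309 coding bases and an effective length of 108.9 bases, so that 1 footprint was worth 17.2 and 18.9 FPKM, compared with 1.08 and 1.19 FPKM for Hspa8. Per base of full coding length, the Hspe1 RPF level was 1485 and 2071 FPKM. It then lay below Hspa8 (4081 and 3763 FPKM), Hsp90ab1 (2722 and 2327 FPKM) and Hsp90aa1 (2444 and 2340 FPKM) without overlap. The values of the other genes moved little, with Hspd1 at 456 and 484.5 FPKM, Hspa9 at 472 and 417 FPKM, Hspa5 at 365 and 382 FPKM, and Hsp90b1 at 349 and 307 FPKM.

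**Figure D2:**
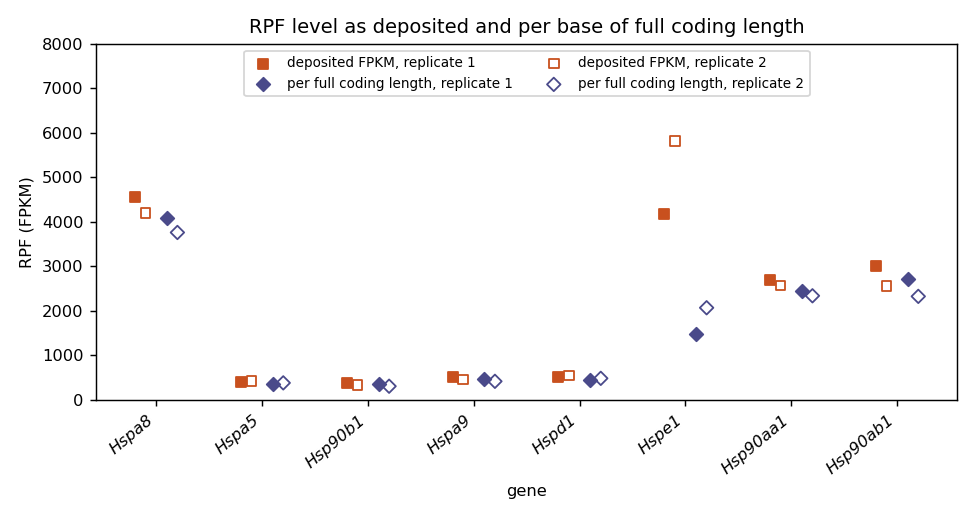
RPF level in FPKM (vertical axis, linear) of the 8 chaperone genes with a mean RPF above 10 FPKM, as deposited (squares) and per base of full coding length (diamonds), replicate 1 filled and replicate 2 open. Hspe1 falls from 4169.8 and 5816 FPKM to 1485 and 2071 FPKM, below Hspa8, Hsp90aa1 and Hsp90ab1, while the other genes move little.

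The RPF-to-mRNA ratio of Hspa5 was higher than that of the median gene, and the other 7 chaperone genes tested did not pass the test. Per replicate number, the raw RPF/mRNA ratio was 9.69 and 6.77 for Hspa5, 8.35 and 4.63 for Hsp90b1, and 6.23 and 7.50 for Hspe1. It was 4.18 and 3.82 for Hspa9 and 3.80 and 3.67 for Hspd1. It was 2.93 and 2.82 for Hsp90ab1, 2.65 and 2.08 for Hspa8, and 1.05 and 1.13 for Hsp90aa1. The median gene was itself 1.26 higher in RPF on the log2 scale, and the differences below are relative to it, on the log2(FPKM + 1) scale, which understates differences of low genes.

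By limma, 1 of the 8 chaperone genes tested passed the threshold (a log2 difference of 1 or more at an adjusted p below 0.05), with higher RPF, and 0 passed with lower RPF. Among all 8327 genes tested, 9.13% passed with higher RPF, 3.24% with lower RPF and 12.4% in either direction, so the chaperone share was near the background. The member called was Hspa5, with a log2 difference of 1.73 ± 0.31 (SE, n = 2 libraries per assay, limma adjusted p = 0.0453). Hspe1 differed by 1.51 ± 0.30 (limma adjusted p = 0.0521) and Hsp90b1 by 1.35 ± 0.33 (limma adjusted p = 0.0747), and neither passed. Hsp90aa1 had a difference of -1.14 ± 0.24 (limma adjusted p = 0.0585), the only one of the 8 below -1, and did not pass either. Hspa9 was at 0.73 ± 0.24, Hspd1 at 0.63 ± 0.24, Hsp90ab1 at 0.26 ± 0.25 and Hspa8 at -0.03 ± 0.25, with limma adjusted p from 0.122 to 0.943. Hspa1a and Hspa1b were below the filter of a mean of 1 FPKM in mRNA and were not tested.

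The median over the 8 genes was 0.68, compared with 0 over all genes tested by centring, with quartiles of -0.76 and 0.79. The call of Hspa5 was narrow: it was lost without mRNA replicate 1 (1.47, limma adjusted p = 0.308), without mRNA replicate 2 (2.01, limma adjusted p = 0.306), with a pseudocount of 0.1 (1.62, limma adjusted p = 0.0710) and with quantile normalization (1.28, limma adjusted p = 0.0649). Per full coding length, the difference of Hspe1 was 0.29 (limma adjusted p = 0.519), while Hspa5 stayed past the threshold at 1.85 (limma adjusted p = 0.0383). Without centring, Hsp90aa1 was at 0.12 and Hspa8 at 1.23, so their direction is relative to the median gene. Inner cell mass and primitive endoderm markers were higher in the RPF libraries by the sums given above, and their part in these ratios was not tested.

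**Figure D3:**
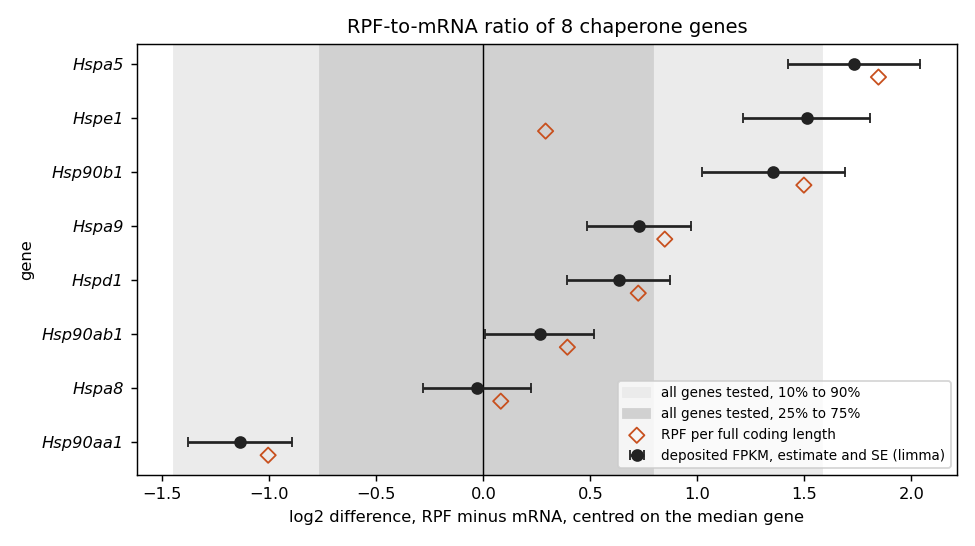
Log2 difference of RPF minus mRNA, centred on the median gene (horizontal axis), for the 8 chaperone genes tested, with the limma estimate and SE from deposited FPKM (points, bars) and the value per full coding length (open diamonds). Grey bands span 25% to 75% and 10% to 90% of all genes tested, and Hspe1 moves from 1.51 to 0.29 between the length settings.

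Ratios between members within a library were free of that centring, though both partners had to be read as FPKM. The 6 pairs were chosen after their values were seen, and 2 libraries against 2 cannot give an exact two-sided permutation p below 0.333, so they are descriptions. Hsp90aa1 was 2.505 and 2.51 times Hsp90ab1 in mRNA, and 0.897 and 1.005 times Hsp90ab1 in RPF. The balance of the cytosolic HSP90 genes thus differed between assays by -1.40 (log2), with replicates close together. Hsp90b1 was 1.09 and 1.15 times Hspa5 in mRNA and 0.937 and 0.788 times in RPF. Hspa8 was 40.9 and 32.1 times Hspa5 in mRNA, but 11.2 and 9.86 times in RPF. Hspa8 was 1.68 and 2.22 times Hsp90ab1 in mRNA and 1.52 and 1.64 times in RPF.

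Hspe1 and Hspd1 encode the lid and the barrel of 1 machine and share a bidirectional start region. Hspe1 was 4.93 and 5.19 times Hspd1 in mRNA and 8.08 and 10.6 times in RPF as deposited. Per full coding length the RPF ratio was 3.26 and 4.275, below both mRNA ratios as deposited. Only RPF was rescaled there, and the direction of this pair with both assays on full length was not tested. Hspd1 and Hspa9 lay close together in both assays, with ratios of 1.08 and 1.23 in mRNA and 0.985 and 1.185 in RPF.

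The 10 genes took 1.22% and 1.20% of the summed FPKM of the mRNA libraries and 0.853% and 0.863% of that of the RPF libraries. With RPF per full coding length, the RPF shares were 1.54% and 1.49%, above the mRNA shares as deposited. That RPF sum also left out symbols without a coding length (18224 of the 20714 symbols in both assays have one). The order of the assays thus depended on this setting, and the part of length alone was not tested. Within the chaperone sum, the cytosolic HSP90 genes took 56.7% and 49.9% in mRNA and 35.0% and 30.35% in RPF (41.7% and 38.6% per full coding length). Hspa5 and Hsp90b1 took 1.39% and 2.12% in mRNA and 4.85% and 4.50% in RPF. The mitochondrial genes took 14.7% and 16.4% in mRNA and 32.1% and 40.3% in RPF, or 19.5% and 24.6% per full coding length. Hspa8 with its near-absent relatives took 27.2% and 31.6% in mRNA and 28.1% and 24.8% in RPF, with overlapping ranges.

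How many places in the genome a footprint of each gene fits was counted with 28-base windows of the coding sequences on NCBIM37. Hspa5 and Hsp90b1 were almost free of copies: 91.3% and 82.5% of their windows occurred at exactly 1 place, and the rest at 0, as windows across an exon junction do when no spliced copy exists. Hspa9 and Hsp90ab1 followed, with 66.9% and 67.4% at 1 place. By contrast, 2.82% of Hspa8 windows, 8.37% of Hsp90aa1, 20.6% of Hspd1 and 25.5% of Hspe1 windows were at 1 place. Hspa8 windows occurred at a median of 5 places and at most 11, and 37.4% of them at 6 or more. For Hsp90aa1, which has 11 annotated exons, 0% of windows were without an unspliced place in the genome. The Hspa1a and Hspa1b windows occurred at a median of 2 places, with 8.06% and 10.6% at 1 place.

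No window of any of the 10 genes occurred at more than 20 places, the mapping limit given by the authors. Except for the Hspa1a and Hspa1b pair, at most 0.279% of the windows of a member occurred in another annotated coding sequence, that between Hsp90aa1 and Hsp90ab1. The repeated places of Hspa8, Hspd1 and Hspe1 were therefore outside annotated coding sequences. Within the cytosolic HSP90 pair, the member with the lower RPF-to-mRNA ratio, Hsp90aa1, was also the one with fewer windows at 1 place. Compared with Hsp90ab1 (67.4% at 1 place, log2 difference 0.26), Hspa8, Hspa5 and Hsp90b1 followed the same order. Hspa9 (66.9%, 0.73), Hspd1 (20.6%, 0.63) and Hspe1 (25.5%, 1.51) did not, with fewer such windows and higher differences. Per full coding length, Hspe1 (0.29) lay below Hsp90ab1 (0.39) and so followed that order, while Hspa9 (0.85) and Hspd1 (0.72) stayed above it. The windows were counted on the genome, whereas the authors mapped to the mm9 transcriptome. Whether places outside transcripts took up reads was not checked, and the part of repeated sequence in these levels was not tested.

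**Figure D4:**
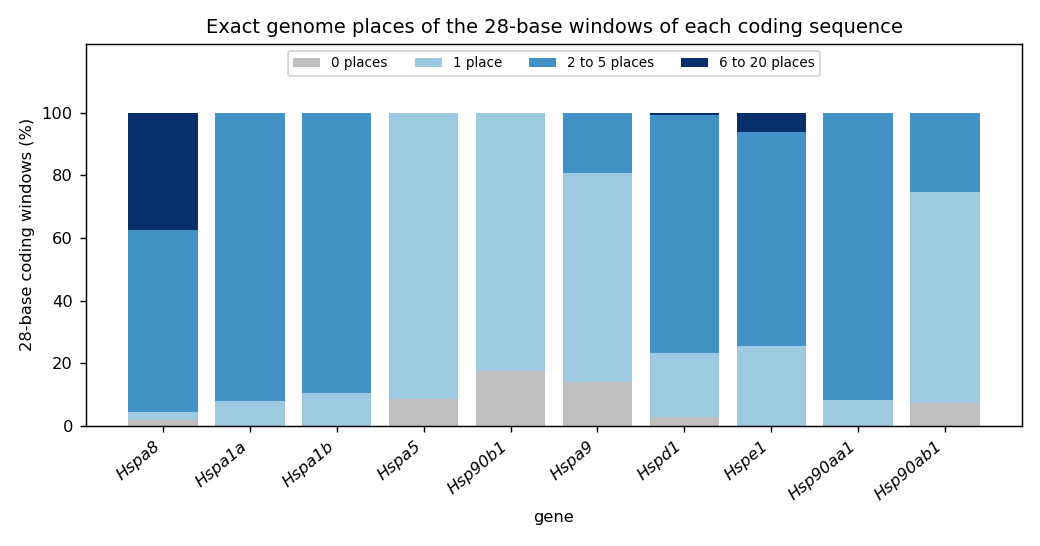
Share of the 28-base windows of each chaperone coding sequence (vertical axis, %) that match the NCBIM37 genome exactly at 0, 1, 2 to 5 or 6 to 20 places (stacked colours). Hspa5 and Hsp90b1 hold only windows at 0 or 1 place, whereas Hspa8 holds 2.82% at 1 place.

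The partners of these chaperones were described in 7 lists of 79 genes in all, of which 65 passed the filter. By limma, 13 of the 65 passed with higher RPF (20.0%, against 9.13% of all genes tested) and 0 with lower RPF. Without mRNA replicate 1 or without mRNA replicate 2, 0 partners passed in either direction, as for all genes. The count with higher RPF was 5 of 65 with a pseudocount of 0.1, where 4.96% of all genes tested passed. With quantile normalization it was 6 of 65 with higher and 3 with lower RPF. There 7.88% and 5.82% of all genes passed, so those partner counts were near the background. With a mean of at least 10 FPKM, 15 of 48 partners passed with higher and 3 with lower RPF, where 17.1% and 11.4% of all genes passed. Per full coding length 12 passed with higher RPF (18.5%, against 9.22% of all), 11 of them the same genes. With lower RPF 3 passed, where 5.28% of all did (Hscb, Cryab and Pam16, named after their values were seen). Of the 19 J-domain co-chaperones tested of 21 listed, which deliver substrates to HSP70, 6 were higher and 0 lower, with a median of 0.88. The largest were Sec63 (2.33, limma adjusted p = 0.0260), which serves the translocon, and Dnajc3 (1.74, limma adjusted p = 0.0313) and Dnajb11 (1.72, limma adjusted p = 0.0458), both of the endoplasmic reticulum lumen. Dnaja2 of the cytosol followed (1.71, limma adjusted p = 0.0375). Sec63 was at 1.90 and 2.92 FPKM in mRNA and 41.7 and 37.7 FPKM in RPF. Dnajb6 had the highest mean RPF of the list (830 and 741 FPKM) and Dnajc19, of the mitochondrial inner membrane, the highest mean mRNA (297 and 246 FPKM).

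Of 15 HSP90 co-chaperones and TRAP1 tested of 16 listed, 3 were higher and 0 lower, with a median of 0.79. Ptges3, the co-chaperone p23 that binds the closed form of HSP90, had the highest mean of the list in both assays and the largest difference (2.84, limma adjusted p = 0.0176). Its mRNA level was 168 and 150 FPKM, a range that overlapped that of Fkbp4 (143 and 151 FPKM) and lay under those of Hsp90aa1 and Hsp90ab1. Its RPF level was 2771 and 2730 FPKM, above that of Hsp90aa1 and within the range of Hsp90ab1. Per full coding length the RPF level of Ptges3 was 1614 and 1590 FPKM, below both HSP90 genes without overlap, so this order turned with the length used. St13, which binds HSP70, differed by 1.60 (limma adjusted p = 0.0369), and Sugt1 by 1.34 (limma adjusted p = 0.0453).

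Of 6 other HSP70 and HSP110 genes tested of 10 listed, 2 were higher and 0 lower, with a median of 0.37. They were Hyou1, an exchange factor of Hspa5 in the endoplasmic reticulum (2.44, limma adjusted p = 0.0221), and Hspa4, a cytosolic HSP110 (1.29, limma adjusted p = 0.0477). Dnajb9 (0.85), Dnajc10 (0.08) and Sil1 (-0.79), also of the endoplasmic reticulum and named after their values were seen, did not pass. Hyou1 was at 1.22 and 1.56 FPKM in mRNA and 28.7 and 31.3 FPKM in RPF (43.0 and 42.5 footprints). Hsph1 had the highest mean RPF (239 and 197 FPKM) and Hspa14 the highest mean mRNA (55.0 and 62.0 FPKM). Of 9 nucleotide exchange and BAG factors tested of 10 listed, 1 was higher, Bag6 (1.33, limma adjusted p = 0.0447), and 0 lower, with a median of 0.04. Grpel1, the exchange factor of Hspa9, had the highest mean of that list in both assays, at 199 and 178 FPKM in RPF and at 41.2 and 47.5 FPKM in mRNA, where Bag1 overlapped it (47.5 and 38.0 FPKM).

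The heat shock factors had 1 of 3 tested genes higher and 0 lower, of 4 listed. It was Hsbp1, which binds HSF1 (2.40, limma adjusted p = 0.0219), but its coding sequence is short, its RPF of 1651 and 1775 FPKM rested on 41.7 and 40.7 footprints, and its difference was 0.40 (limma adjusted p = 0.303) per full coding length. Of the small heat shock proteins, 4 of 9 passed the filter and 0 passed the test in either direction, with a median of -0.52. Hspb1 had the highest mean RPF of them (237 and 145 FPKM), and Cryab the highest mean mRNA (75.3 and 97.1 FPKM). All 9 genes of the mitochondrial import motor and proteases were tested and 0 passed in either direction, with a median of 0.15. Pam16 was highest there in both assays as deposited, with 141 and 163 FPKM in mRNA and 247 and 201 FPKM in RPF. Its coding sequence is short, and per full coding length its RPF level was 115 and 93.7 FPKM, a range that took in those of Clpp (108 and 103.5 FPKM) and Yme1l1 (102 and 96.0 FPKM). Hspa9, which works with Pam16 at the import channel, was lower than Pam16 in mRNA replicates 1 and 2 and higher in RPF.

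**Figure D5:**
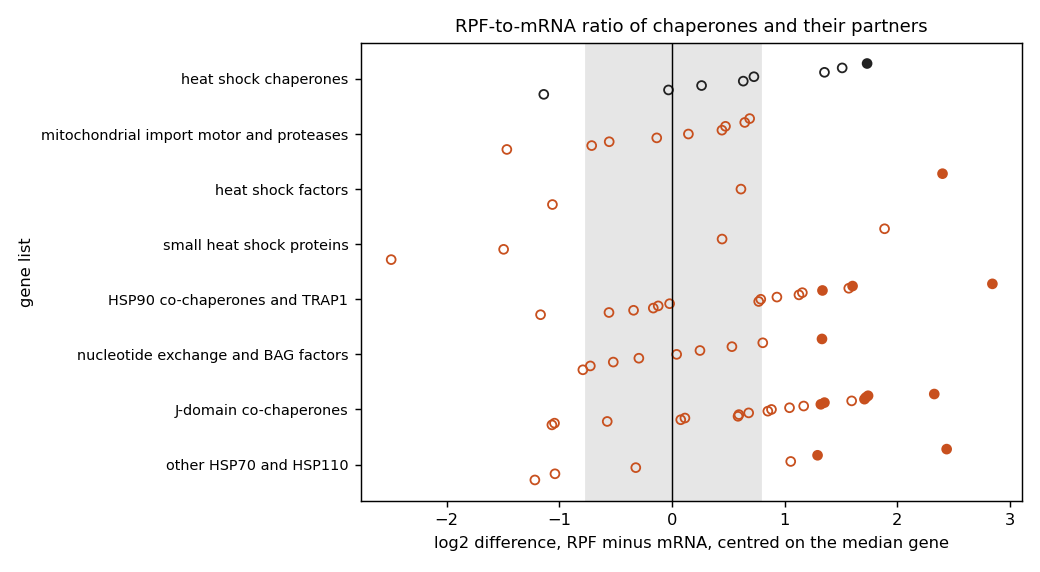
Log2 difference of RPF minus mRNA, centred on the median gene (horizontal axis), for the chaperone genes (black) and 7 lists of partners (orange), 1 point per gene tested. Filled points passed the limma threshold and the grey band spans 25% to 75% of all genes tested. In this main setting all 14 filled points, 1 chaperone and 13 partners, lie on the side of higher RPF. Other settings also called partners with lower RPF.

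The gene with the most similar pattern was found by Euclidean distance over the 4 log2(FPKM + 1) values, among 20713 genes. It was Pfn1 for Hspa8 (distance 0.272), with 1649 and 1878 FPKM in mRNA and 4724 and 4953 FPKM in RPF. It was Nme2 for Hsp90ab1 (0.348). It was Glipr2 for Hspa5 (0.323) and Ptbp1 for Hsp90b1 (0.286). For the mitochondrial genes it was Hnrnpf for Hspa9 (0.167), 1810009A15Rik for Hspd1 (0.145) and the ribosomal protein gene Rpl37 for Hspe1 (0.432). Hspa1a and Hspa1b, at 0 in mRNA, were nearest to Eml1 (0.0255) and Slc13a5 (0.221).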

How the data were processed

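Blastocyst RNA-seq and Ribo-seq libraries (2 each) were analysed. The authors trimmed reads with Trim Galore 0.4.2 and cutadapt 1.14, and removed rRNA reads of Ribo-seq with Bowtie2 2.2.2. They mapped with STAR 2.5.3a to the mm9 transcriptome (at most 20 places per read, and 2 mismatches in Ribo-seq). They deposited FPKM per gene, made with Cufflinks 2.2.1, over transcripts for RNA-seq and coding sequences for Ribo-seq. How reads that fit several places were divided between them was not checked.

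From these FPKM, the highest value was kept for symbols with several entries. The RPF-to-mRNA ratio was fitted with limma 3.58.1 (R 4.3.3) on log2(FPKM + 1), centred on the median of 8327 genes with a mean of at least 1 FPKM in both assays, with Benjamini-Hochberg adjustment over all of them. FPKM carry no counts, so footprints were computed from the steps of low values, with the Cufflinks default fragment length (mean 200, SD 80 bases) and coding lengths without the stop codon. Floors are 3 fragments. Windows and coordinates used GENCODE vM1 on NCBIM37, and promoters RefSeq on GRCm38.p6. Python 3.11.15 with numpy 2.4.6, pandas 2.3.3, scipy 1.17.1 and matplotlib 3.10.9 was used.

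The members and lists were chosen with earlier results of these data known. Named partners were the highest of each list in mRNA and in RPF and, of those past the threshold with at least 10 FPKM in the higher assay, the 4 with the largest differences. Each member's nearest gene was also named, except that of Hsp90aa1, which is not reported here. In simulated data of 8327 genes for this ratio, a log2 change of 2 was recovered in 0% of 200 changed genes and in 72% of 2000, and a change of 5 in 82% and 95.5%. Alternatives were the pseudocount, the filter, quantile normalization, centring, summed symbols, the replicate number as a block, the full coding length and leaving out each library. The full coding length was applied to RPF only, with mRNA as deposited.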

Additional observations from a re-analysis of the deposited data

How the results depend on the processing

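Over all 8327 genes tested, limma called 760 with higher and 270 with lower RPF (2986 at an unadjusted p under 0.05). The counts were 413 and 130 with a pseudocount of 0.1, 656 and 485 with quantile normalization and 4113 and 65 without centring. With other numbers tested, they were 1961 and 123 of 20714 with no filter on low values, 620 and 413 of 3617 with a mean of at least 10 FPKM, and 681 and 390 of 7387 per full coding length. Leaving out 1 library gave 0 to 1359 genes with higher and 0 to 1287 with lower RPF: 1359 and 1287 without RPF replicate 1, 1322 and 1280 without RPF replicate 2, and 0 and 0 by limma without either mRNA replicate (1317 and 1260 at an unadjusted p under 0.05). In each such fit the lone library is assumed to vary like the other assay.

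Of the chaperone genes, 1 passed with higher and 0 with lower RPF. With higher RPF the count was 0 with a pseudocount of 0.1 and with quantile normalization (4.96% and 7.88% of all genes tested), 3 of 8 with a mean of at least 10 FPKM (17.1% of all), 7 of 10 with no filter (9.47%) and 7 of 8 without centring (49.4%), and 0 to 2 when 1 library was left out (0% to 17.1%). With lower RPF it was 1 (Hsp90aa1) with a mean of at least 10 FPKM and with quantile normalization (11.4% and 5.82% of all).

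The difference of Hspa5 lost its call at a pseudocount of 0.1 (1.62) and with quantile normalization (1.28), and ranged from 1.47 to 2.01 with 1 library left out. Without a filter or without centring (the median shift is then 0, so all values rise together), Hspa8 turned to 1.23 and Hsp90aa1 to 0.12, and Hspa9 (1.99), Hspd1 (1.89), Hspe1 (2.77) and Hsp90ab1 (1.52) passed, as did Hsp90b1 (2.61) without centring only and, without a filter only, Hspa1a (1.10), at 0 in mRNA and 1.0 footprint in each RPF library. Hspa8, at 1.23, passed in both settings. With at least 10 FPKM, Hsp90b1 (1.31), Hspe1 (1.47) and Hsp90aa1 (-1.18) passed, and with quantile normalization Hsp90aa1 did (-1.38). Hspa8 was at 0.081 per full coding length and from -0.18 to 0.082 with 1 library left out. Those ranges were 1.12 to 1.66 for Hspe1, 1.05 to 1.68 for Hsp90b1, 0.55 to 0.77 for Hspa9, 0.44 to 0.70 for Hspd1, 0.06 to 0.37 for Hsp90ab1, and -1.26 to -1.03 for Hsp90aa1. Hspe1 and Hsp90aa1 were at 1.66 and -1.26 without RPF replicate 1, and at 1.12 and -1.26 without RPF replicate 2. The causes were not tested.

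Per full coding length, the mean RPF level was 3922 FPKM for Hspa8, 1.02 for Hspa1a, 374 for Hspa5, 445 for Hspa9, 470.2 for Hspd1, 1778 for Hspe1 and 2392 for Hsp90aa1, and the RPF share was 1.51%.

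Replicate numbers are shared between assays, but the labels do not say that they mark shared embryos, and the deviations of libraries with the same number had a correlation of 0.0099 across 8327 genes. With the replicate number as a block, 27 genes passed with higher and 1 with lower RPF, 0 of them chaperone genes or listed partners (Hspa5 at 1.73, limma adjusted p = 0.104). With 2 libraries per assay, the depth of Ribo-seq limits Hspa1a and Hspa1b, at 1.0 to 4.0 footprints.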
